A study of Mus musculus with 8 samples.

Results

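The genes described here encode nuclear subunits of the 5 complexes of oxidative phosphorylation. They were chosen by symbol, as every listed name that starts with Ndufa, Ndufb, Ndufc, Ndufs or Ndufv and a digit, with Uqcr, with Cox4 to Cox8 or with Atp5, plus Sdha, Sdhb, Sdhc and Sdhd. The rule used symbols and no values, but it was set with earlier results of these data known. It gave 84 of the 24346 genes in the tables. Complex I held 35 of them, complex II 4, complex III 8, complex IV 20 and complex V 17. Ndufa4 and Ndufa4l2 were placed in complex IV, where the Ndufa4 protein is found. Atp5s and Atp5sl carry subunit names but encode no subunit of the ATP synthase.

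RNA was measured in 8 libraries of sorted mesenchymal cells of the mouse large intestine, with a gate negative for CD45, EpCAM, CD31 and Ly6C, positive for gp38 and high for PDGFRα. The genotype libraries were 1 control (Cxcl12 flox/flox) and 1 conditional knockout (Foxl1cre; Cxcl12 flox/flox), both untreated, so both carried the floxed Cxcl12 alleles and differed by the Cre, which the Foxl1 driver limits to cells that use it. The GABA and taurine libraries came from C57BL/6 mice, 3 at 0 h and 3 at 6 h of 1 mM GABA with 20 mM taurine. There was no untreated 6 h group, so time and treatment cannot be told apart. Age, sex, pooling of animals and whether the 3 libraries of a time were separate mice or cultures are not given in the labels, so the p-values reflect the spread between libraries alone, and that spread may be technical.

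The respiratory chain passes electrons from NADH (complex I) and succinate (complex II) through ubiquinone to complex III, then through cytochrome c to oxygen at complex IV. Complexes I, III and IV pump protons, and the ATP synthase (complex V) uses the gradient to make ATP. Most subunits are encoded in the nucleus and a few in the mitochondrial genome. Of 26 genes of the mitochondrial genome looked up by symbol, 0 were listed, so they could not be analysed here. Several complex IV subunits exist as a widespread isoform and a second isoform known from muscle, testis or lung, and those pairs held the widest differences in these libraries.

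The pairs of Cox6b and Cox8 are shown by their promoters, because Cox6b2 and Cox8b were high in one set of libraries and near 0 in the other while their widespread partners were high in all 8. Each sequence is the RefSeq window from 250 bases before to 50 bases after the start site, in GRCm38.p6, 5′ to 3′ on the gene's strand, which is the minus strand for all 4 genes. Capitals mark matches to the ETS motif CCGGAAG, the kind bound by GABP, or to its reverse complement.

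Cox6b1 (widespread), chr7:30626065-30626364: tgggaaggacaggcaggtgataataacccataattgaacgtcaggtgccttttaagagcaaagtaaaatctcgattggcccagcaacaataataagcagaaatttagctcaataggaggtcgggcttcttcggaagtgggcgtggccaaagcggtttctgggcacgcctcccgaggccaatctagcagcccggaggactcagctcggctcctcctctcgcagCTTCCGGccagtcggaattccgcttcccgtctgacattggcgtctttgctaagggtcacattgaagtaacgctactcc
Cox6b2 (testis), chr7:4753045-4753344: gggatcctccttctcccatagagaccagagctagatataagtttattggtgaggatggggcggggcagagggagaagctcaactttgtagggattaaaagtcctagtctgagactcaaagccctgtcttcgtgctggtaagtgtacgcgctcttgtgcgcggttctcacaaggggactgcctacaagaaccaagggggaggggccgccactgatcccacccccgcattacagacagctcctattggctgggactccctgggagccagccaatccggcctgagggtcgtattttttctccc
Cox8a (widespread), chr19:7217567-7217866: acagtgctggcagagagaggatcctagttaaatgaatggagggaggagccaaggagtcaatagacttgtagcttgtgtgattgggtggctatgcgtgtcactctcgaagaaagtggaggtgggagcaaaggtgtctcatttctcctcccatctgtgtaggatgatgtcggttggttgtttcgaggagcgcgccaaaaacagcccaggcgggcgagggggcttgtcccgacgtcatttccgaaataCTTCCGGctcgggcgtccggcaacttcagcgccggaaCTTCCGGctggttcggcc
Cox8b (heart and skeletal muscle), chr7:140900397-140900696: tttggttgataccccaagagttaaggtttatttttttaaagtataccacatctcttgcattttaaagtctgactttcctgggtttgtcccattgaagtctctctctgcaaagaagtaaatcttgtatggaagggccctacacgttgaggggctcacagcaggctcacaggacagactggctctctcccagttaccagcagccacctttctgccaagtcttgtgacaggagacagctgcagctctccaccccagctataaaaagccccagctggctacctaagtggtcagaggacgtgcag

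The Cox6b1 window held 1 match, 28 bases before the start, and the Cox8a window held 2. Those of Cox6b2 and Cox8b held none. RefSeq promoters were found for 69 of the 84 genes, and 3 short motifs of factors known at such genes were searched on both strands. The ETS motif CCGGAAG was in 21.7% of the 69 promoters and in 9.12% of 27025 promoters of all genes. The NRF1 core CGCATGCG was in 11.6% against 1.91%, and the YY1 motif AAGATGGC in 14.5% against 2.88%. None of the 3 was in the promoters of the 4 tissue isoforms with an entry (Cox6b2, Cox7a1, Cox7b2 and Cox8b), and 29 of the other 65 held at least 1. The share of all genes with at least 1 was not counted. No motif was in more than 9.12% of all promoters, so its lack in 4 promoters does not set these isoforms apart. The median promoter of those 4 had 8.5 CpG pairs, against 20 in the other 65 and 7 in all genes. A match is only a match of letters and was not tested as a binding site.

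Levels are in FPKM, the fragment number scaled by transcript length and by library, as the authors deposited it. The read depth is unknown, so no counting interval can be given. Summed FPKM over all genes ran from 513001 to 579004 per library, and no pair of libraries held identical values. Cxcl12, the gene targeted in the knockout, was at 1300 FPKM in the control library and 740 FPKM in the conditional knockout, 0.57 times as high, and at 860 to 969 FPKM in the other 6. The labels do not say which part of the gene is floxed, and the value covers the whole gene. The gate gene Pdgfra was at 152 to 227 FPKM in all 8 libraries. The other positive gate gene, Pdpn (gp38), was at 96.1 and 91.7 FPKM in the genotype libraries and 281 to 304 FPKM in the others. Ly6c1 of the negative gate was at 141 and 89.6 FPKM in the genotype libraries and 8.76 to 12.4 FPKM in the others. Foxl1 itself was at 10.2 and 11.6 FPKM in the genotype libraries but at 0.109 to 0.289 FPKM in the GABA and taurine libraries.

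The oxidative phosphorylation genes made up 2.25% to 2.3% of all FPKM in the genotype libraries and 2.87% to 3.1% in the GABA and taurine libraries. Atp5b, the catalytic β subunit of the ATP synthase, was the highest, with a mean of 816.5 FPKM over the 8 libraries. It stood at 480.9 FPKM (control) and 545.5 FPKM (knockout), and between 882.1 and 944.9 FPKM in the other 6. In complex III the highest was Uqcrb, a small subunit near the ubiquinone site, at 547.6 FPKM, and the lowest was the core protein Uqcrc2 at 79.1 FPKM. In complex IV the highest was Cox6b1 at 457.5 FPKM. Complex I was led by the accessory subunit Ndufb8 at 312.7 FPKM, and its lowest member was Ndufa11, an accessory subunit of the membrane arm, at 27.3 FPKM. In complex II the membrane anchors held both ends, Sdhd at 154.8 FPKM and Sdhc at 69.9 FPKM. The subunits of one complex were therefore listed at unequal levels, and apart from the tissue isoforms the lowest genes were Atp5s at 7.31 FPKM and Atp5sl at 11.5 FPKM, which are not subunits. The order of the 84 genes was alike within a set, with Spearman's rho of 0.98 between the genotype libraries and 0.992 to 0.997 among the 15 pairs of the others. Between the sets it was 0.868 to 0.898 over 12 pairs. These correlations are across genes, which are not independent replicates.

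**Figure D1:**
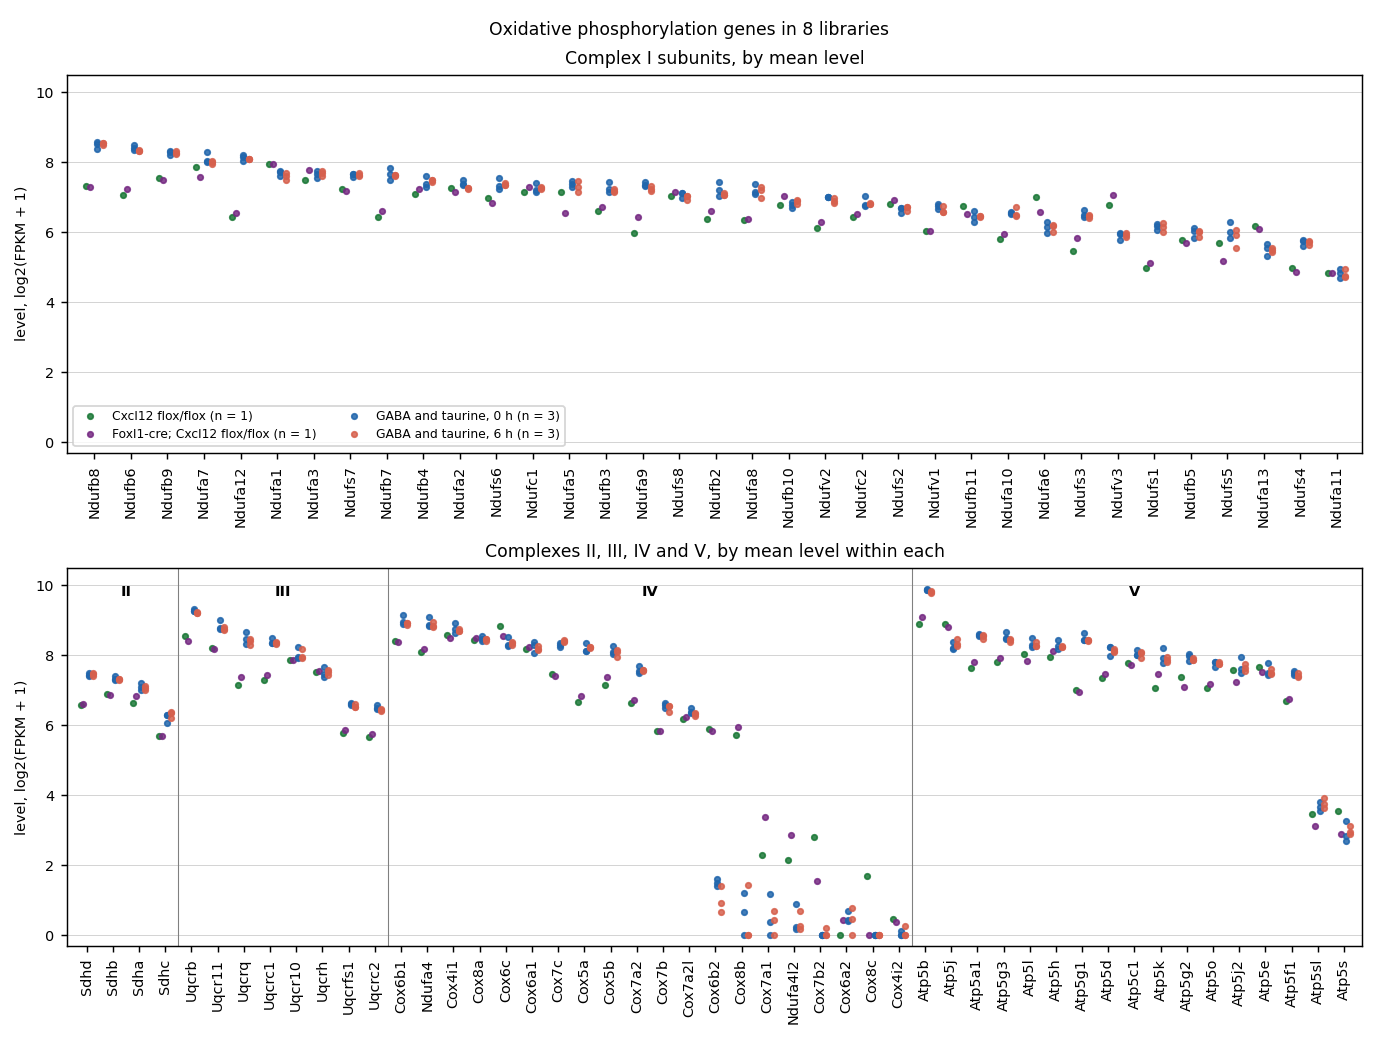
Level of each of the 84 genes in each of the 8 libraries, as log2(FPKM + 1), with 1 point per library and genes ordered by mean level within their complex. Most genes lie between about 5 and 10 in every library, the genotype points often lie under the others, and the tissue isoforms of complex IV lie near 0 in the GABA and taurine libraries.

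The first comparison set the 2 genotype libraries against the 6 GABA and taurine libraries. The sets differ in mice, in handling and possibly in the authors' scaling, so the levels are described and not tested, and these differences cannot be told apart. In bulk samples, fewer cells of a type and less RNA per cell cannot be told apart either. Of the 84 genes, 81 had a mean of at least 1 FPKM over the 8 libraries, and 61 of these were lower and 20 higher in the genotype libraries. The median difference was -0.49 on the log2(FPKM + 1) scale, against -0.05 over all 12043 genes at that level. Both genotype values lay below the 6 others for 54 of the 81 (66.7%), against 41.3% of all genes, and above them for 12 (14.8%), against 37.8%. Those 12 include 4 tissue isoforms of complex IV (Cox8b, Cox7a1, Cox7b2 and Ndufa4l2) that reached the 1 FPKM mean only through the genotype libraries, so their place was fixed by the filter. Without any tissue isoform, 54 of 76 lay below and 7 above. Against the 3 libraries at 0 h alone, the median over the 81 was -0.52, with 57 below and 12 above. Over all genes that median was -0.048, with 43.7% below and 40.3% above. Genes averaging 50 FPKM or more over the 8 libraries stood lower in the genotype libraries, with a median of -0.79 over 2159 genes. The median was -0.57 for the 72 oxidative phosphorylation genes at that level. Of those 72, 72.2% lay below without overlap, near the 68.6% of all such genes, and 9.72% lay above, against 21.3%. A mean over 8 libraries weighs the 6 GABA and taurine libraries more, so the 50 FPKM filter favours genes lower in the genotype libraries. The lower level was shared with the genes that passed this filter, which cannot show it for abundant genes in general.

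By complex, the median difference was -0.46 for complex I, -0.51 for complex II, -0.77 for complex III and -0.62 for complex V. For complex IV it was -0.14 over 17 genes, but -0.69 over the 11 widespread isoforms and 2.38 over 5 tissue isoforms, of which 4 passed the filter only through their values in the genotype libraries. Without overlap, 41.3% of all genes were lower and 37.8% higher, as were 68.6% and 21.3% of those averaging 50 FPKM or more. Complex II was lower in all 4 of its genes without overlap. Complex III was lower without overlap in 7 of 8, with Uqcrh, the hinge protein that binds cytochrome c1, as the exception at 183.3 and 185.4 FPKM against 166.7 to 202 FPKM. In complex I, 21 of 35 were lower and 5 higher without overlap. Of the 11 widespread isoforms of complex IV, 8 were lower and 1 higher, and of the 17 genes of complex V, 13 were lower and 1 higher.

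By role, the 7 core subunits of complex I had a median of -0.65 and its 28 accessory subunits -0.41, and the 2 core proteins of complex III -0.90 against -0.61 for its 5 small subunits. The single genes furthest down are given with their values. Ndufa12, an accessory subunit of the complex I matrix arm, stood at 84.5 FPKM (control) and 93.0 FPKM (knockout), against 260.9 to 294.5 FPKM (median 272) in the other 6, a difference of -1.62. Cox5a of complex IV stood at 99.9 and 114.8 FPKM against 276.1 to 328.9 FPKM, a difference of -1.46. Ndufb6 stood at 132 and 150.3 FPKM against 315.5 to 360.7 FPKM, and Ndufb8 at 159.2 and 154.8 FPKM against 333.5 to 382.8 FPKM, both with differences near -1.2. Uqcrq, a small subunit of complex III, stood at 142.6 and 167.7 FPKM against 316.1 to 407.1 FPKM. In all 5 the genotype libraries were the 2 lowest of the 8.

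The c-ring of the ATP synthase, the rotor through which protons pass, is made from 3 genes that encode the same mature protein with different import sequences. Atp5g1 stood at 128.3 and 122.6 FPKM in the genotype libraries and at 343.1 to 394.8 FPKM in the others, a difference of -1.49. It supplied 24.8% and 24.5% of the summed FPKM of the 3 genes in the genotype libraries and 37.1% ± 0.549 (SD, n = 6) in the others. Atp5g3 supplied 43% and 48.4% against 37.6% ± 0.736, and Atp5g2 supplied 32.3% and 27.1% against 25.3% ± 0.826. The make-up of the pool thus differed between the sets as well as its total.

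Some subunits went the other way. Ndufv3, a small accessory subunit beside the NADH site of complex I, stood at 108.1 and 131.3 FPKM in the genotype libraries against 54.0 to 62.2 FPKM in the others, a difference of 1.00. Ndufa6, of the complex I matrix arm, stood at 128.3 and 93.7 FPKM against 62.2 to 76.9 FPKM. Ndufa13, also known as GRIM-19, stood at 70.8 and 67.2 FPKM against 38.7 to 49.6 FPKM. Atp5j, coupling factor 6 in the peripheral stalk of the ATP synthase, stood at 478.9 and 451.7 FPKM against 287.2 to 352.6 FPKM, a difference of 0.56. The Atp5j gene overlaps Gabpa on the other strand in the GENCODE annotation, and the libraries do not mark strand. Cox8a at 347.4 and 357.6 FPKM against 337.9 to 375.1 FPKM, Cox6a1, Ndufa11 and Atp5e lay within the range of the other set.

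**Figure D2:**
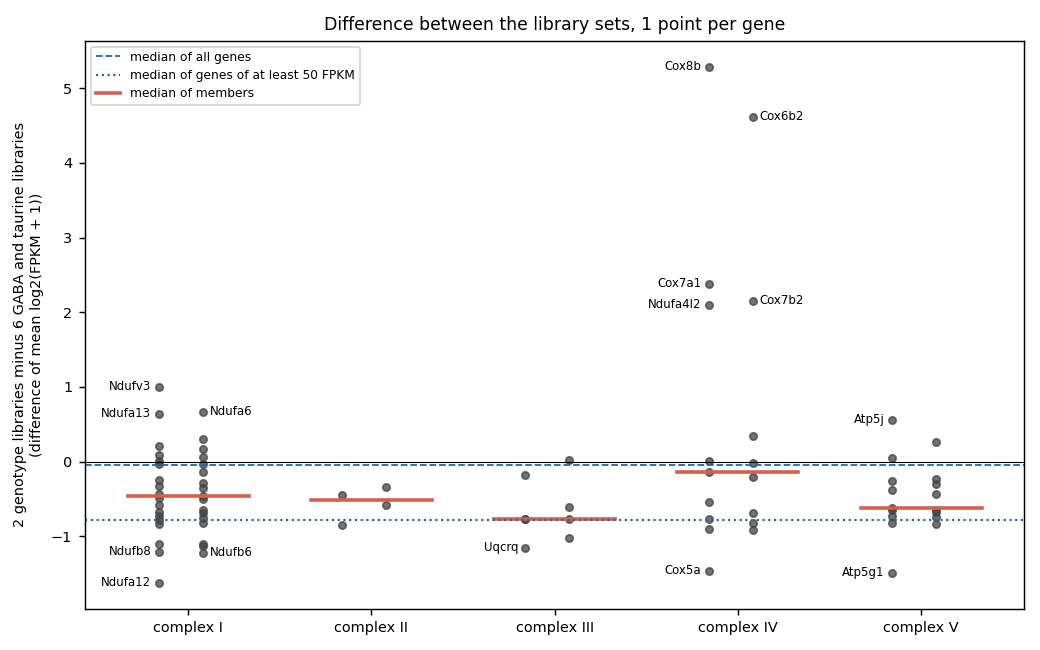
Difference of mean log2(FPKM + 1) between the 2 genotype and the 6 GABA and taurine libraries, 1 point per gene by complex (81 genes), with the median of each complex as a bar and the medians of all genes and of genes of at least 50 FPKM as lines. Most points lie under 0, and 5 tissue isoforms of complex IV lie above 2.

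The complex IV isoforms differed most. Cox6b2, the isoform of subunit 6b known from testis, was at 58.4 FPKM (control) and 56.6 FPKM (knockout), and at 2.06, 1.67, 1.82, 0.897, 1.64 and 0.579 FPKM in the others. Its mean was 39.8 times as high in the genotype libraries, while its widespread partner Cox6b1 was lower there, at 342.7 and 335.6 FPKM against 468.1 to 569.6 FPKM. Cox6b2 was 14.6% and 14.4% of the summed FPKM of the pair in the genotype libraries and 0.288% ± 0.109 (SD, n = 6) in the others. Cox8b, the isoform of heart and skeletal muscle, was at 51.8 and 61.5 FPKM in the genotype libraries, and in the others it was at 0.598, 1.32 and 1.73 FPKM in 3 libraries and listed at 0 in 3. It made up 12.9% and 14.7% of the Cox8 family against 0.172% ± 0.216. Cox6b2 and Cox8b overlap no other annotated gene.

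The remaining tissue isoforms were low in all libraries. Cox7a1, of heart and muscle, was at 3.91 and 9.36 FPKM in the genotype libraries and at 0 to 1.29 FPKM in the others. Ndufa4l2, known as a hypoxia-induced paralog of Ndufa4, was at 3.43 and 6.32 FPKM against 0.14 to 0.859 FPKM. Cox7b2, known from testis, was at 6.03 and 1.92 FPKM and was listed at 0 in 5 of the 6 others. All 3 lay above the other set without overlap, but passed the filter on low values through the genotype libraries alone. Cox4i2, known from lung, was at most 0.386 FPKM and Cox6a2, of heart and muscle, at most 0.732 FPKM in any library. Cox8c, of testis, was at 2.27 FPKM in the control library and listed at 0 in the other 7. Summed over the 8 tissue isoforms the level was 126.2 and 136.4 FPKM in the genotype libraries and 1.94 to 4.76 FPKM in the others.

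**Figure D3:**
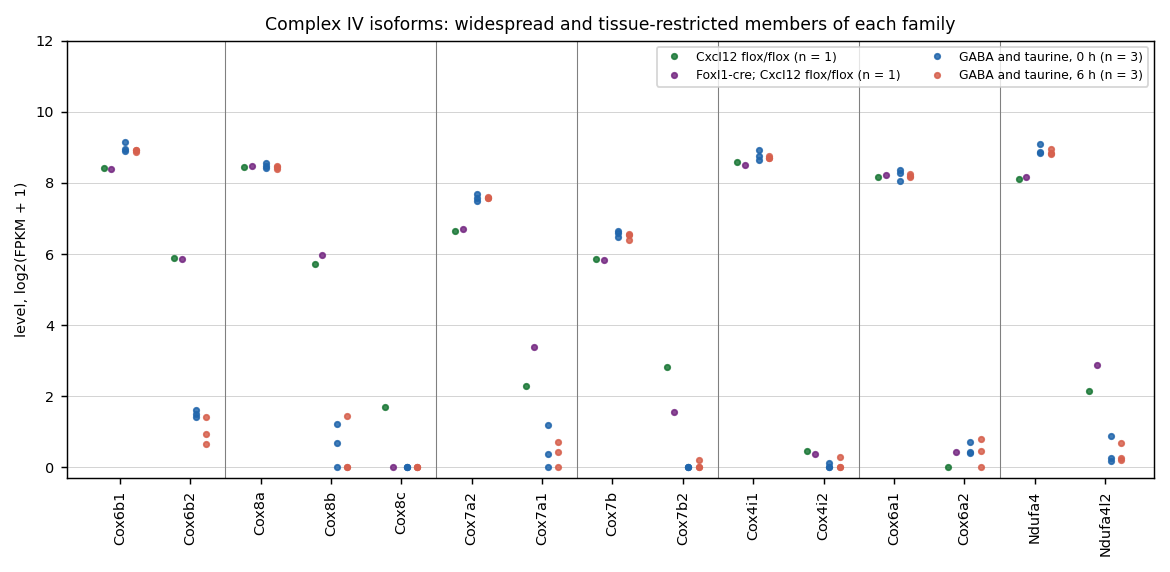
Level of widespread and tissue-restricted complex IV isoforms in each of the 8 libraries, as log2(FPKM + 1), 1 point per library, with families separated by lines. Cox6b2 and Cox8b lie near 6 in both genotype libraries and under 2 in the GABA and taurine libraries.

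Markers of other cell types moved with the set. The summed level of 12 striated muscle markers was 16.5 and 19.3 FPKM in the genotype libraries and 0.898 to 4.96 FPKM in the others, mostly from the troponin gene Tnni2 at 9.62 and 12.6 FPKM, while the muscle creatine kinase Ckm was listed at 0 in both genotype libraries. The 16 leukocyte markers summed to 262 and 317 FPKM against 2.2 to 13.6 FPKM, with Ptprc (CD45) at 4.82 and 6.85 FPKM. The 17 epithelial markers summed to 123 and 1100 FPKM against 2.78 to 8.46 FPKM, and the 12 endothelial markers to 75.6 and 49.6 FPKM against 14.3 to 21.2 FPKM. The 8 pericyte markers summed to 143 and 144 FPKM against 47.6 to 58.2 FPKM, and the 9 smooth muscle markers to 711 and 846 FPKM against 1130 to 1250 FPKM. Of the 8 smooth muscle markers averaging 1 FPKM or more, 4 were lower and 4 higher without overlap. Acta2 stood at 305 and 382 FPKM against 489 to 550 FPKM, but Mylk at 31.0 and 30.1 FPKM against 1.08 to 1.53 FPKM. Myh11, also higher, passed that filter only through the genotype libraries. The 10 mesenchymal markers were also unequal, at 15700 and 17500 FPKM against 2430 to 2640 FPKM, with Vim at 532 and 605 FPKM against 1170 to 1340 FPKM. Their part in the differences between the sets was not tested.

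Other genes of the same biology were counted against 51.9% lower among all genes and 73.5% among those averaging 50 FPKM or more. The filter at 50 FPKM weighs the GABA and taurine libraries more, so the 73.5% leans to lower. Of 46 assembly factors, 38 were lower and 8 higher, with a median of -0.59. Ndufaf4, which assembles complex I, stood at 3.53 and 3.84 FPKM against 32.2 to 35.1 FPKM, and Surf1, which assembles complex IV, at 26.5 and 24.0 FPKM against 14.2 to 20.0 FPKM. Of 11 further subunits and carriers 8 were lower, with cytochrome c (Cycs) at 48.9 and 62.8 FPKM against 157 to 174 FPKM. Of 18 tricarboxylic acid cycle genes 14 were lower, with a median of -0.81. The malate dehydrogenase Mdh2 stood at 123 and 156 FPKM against 508 to 547 FPKM, but Idh2, the mitochondrial NADP-dependent isocitrate dehydrogenase, was higher at 81.0 and 83.9 FPKM against 12.9 to 18.6 FPKM. Of 13 coenzyme Q synthesis genes 11 were lower, with a median of -0.75.

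Of 13 regulators of mitochondrial biogenesis 12 were lower. Myc stood at 39.8 and 48.7 FPKM against 252 to 286 FPKM, the PGC-1-related coactivator Pprc1 at 7.48 and 9.08 FPKM against 46.1 to 56.9 FPKM, and Gabpb1, the partner of the ETS factor Gabpa, at 11.0 and 9.83 FPKM against 45.8 to 56.7 FPKM. Gabpa itself was at 13.6 and 15.4 FPKM against 14.2 to 20.4 FPKM, and Tfam, which packages and transcribes mitochondrial DNA, at 6.47 and 5.72 FPKM against 14.4 to 16.2 FPKM. The coactivator Ppargc1a was at 2.41 and 1.54 FPKM in the genotype libraries and at 0 to 0.0623 FPKM in the others, under the filter of 1 FPKM.

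The second comparison asked what 6 h of GABA and taurine changed against 0 h. No oxidative phosphorylation gene changed past the threshold. Of the 84 genes, 77 averaged 1 FPKM or more at 0 h and 6 h together and were tested with limma on log2(FPKM + 1). None had a Benjamini-Hochberg adjusted p under 0.05 over all 10910 genes, where 0.238% were called higher and 0.312% lower at 6 h. The smallest adjusted p of the 77 was 0.429, and 2 had an unadjusted p under 0.05. The estimates were small. Among the 72 that averaged 50 FPKM or more over all 8 libraries they ran from -0.20 to 0.11, with a median standard error of 0.0656. The 95% intervals of limma lay within a 1.5-fold change in either direction for all 72, and within 1.3-fold for 71. The widest reached -0.48, for the complex I accessory subunit Ndufs5.

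The 5 genes with the smallest p are given with their values. Ndufa2, an accessory subunit of the NADH-oxidising module, was at 180.0, 161.3 and 163.2 FPKM at 0 h and at 152.8, 152.1 and 150.1 FPKM at 6 h. Its log2 change was -0.15 with a standard error of 0.0565 (limma adjusted p = 0.429). The gene overlaps Tmco6 on the other strand. Cox6b2 averaged 1.85 ± 0.201 FPKM (SD, n = 3) at 0 h and 1.04 ± 0.547 FPKM (SD, n = 3) at 6 h, and its change was -0.51 with a standard error of 0.209 (limma adjusted p = 0.458). At this level the groups were separated by the difference between 1.665 and 1.644 FPKM.

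Ndufa9, an accessory subunit near the quinone site, was at 171.8, 161.5 and 159.8 FPKM at 0 h and at 159.2, 150.4 and 142.0 FPKM at 6 h (limma adjusted p = 0.539), and overlaps an antisense gene. Cox7c of complex IV was the highest relative to 0 h, at 326.9, 316.0 and 299.1 FPKM and then 336.7, 331.6 and 345.8 FPKM, a change of 0.11 (limma adjusted p = 0.557). The c-ring gene Atp5g3 was at 406.7, 356.9 and 357.9 FPKM and then 349.0, 352.3 and 330.2 FPKM (limma adjusted p = 0.584). The 3 values of each time did not overlap in any of the 5, and the exact two-sided permutation p of each was 0.1, the smallest that 3 against 3 libraries allow.

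Estimates leaned to lower values at 6 h, with 57 of 77 under 0 and a median of -0.038, against -0.002 over all genes tested. Genes of at least 50 FPKM leaned the same way, with a median of -0.025 and 62.2% under 0. The 3 values at 6 h lay below those at 0 h without overlap for 10 of the 77 (13.0%), against 8.01% of all genes, and above them for 1 (1.3%), Cox7c, against 7.25%. The 10 were Ndufa2, Ndufa9, Ndufb6, Ndufv2, Uqcrb, Cox6b2, Cox7a2l, Atp5b, Atp5g1 and Atp5g3. By complex the median was -0.025 for I, -0.003 for II, -0.056 for III, -0.059 for IV and -0.042 for V. The 7 core subunits of complex I, which carry the flavin and iron-sulfur centres, had a median of -0.077, with none called.

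The direction of this lean turned on 1 library, replicate 1 at 0 h, and its size also on replicate 3 at 0 h. Replicate 1 at 0 h was the highest of the 6 for 52 of the 77 genes (67.5%), against 21.7% of all genes. Replicate 3 at 0 h was the lowest for 37 of the 77, against 16.3% of all genes. Without replicate 1 at 0 h the median was 0.011 and 46 of the 77 were above 0, whereas without replicate 2 or replicate 3 at 0 h it was -0.062 and -0.089. The excess of replicate 1 over the others at 0 h had a median of 0.14 on the log2 scale for these genes and of 0.0023 for all genes. It was 0.199 for the 47 whose median protein-coding transcript is under 800 bases and 0.0709 for the 30 longer ones. Over all genes it was 0.0696 for 1182 short and -0.0056 for 9030 longer genes. What set this library apart was not tested. Over the 6 libraries, the coefficient of variation of the 72 high genes had a median of 6.63% and ran from 2.44% for Sdhd to 17.4% for Ndufs5. It had a median of 5.67% for 2131 genes of at least 50 FPKM. Those were chosen by their mean over the 6 libraries, and the 72 by their mean over all 8. Of the cell type markers tested, 1 was called, the epithelial keratin Krt8, at 0.188 to 0.729 FPKM at 0 h and 1.75 to 2.31 FPKM at 6 h (limma adjusted p = 0.0319).

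**Figure D4:**
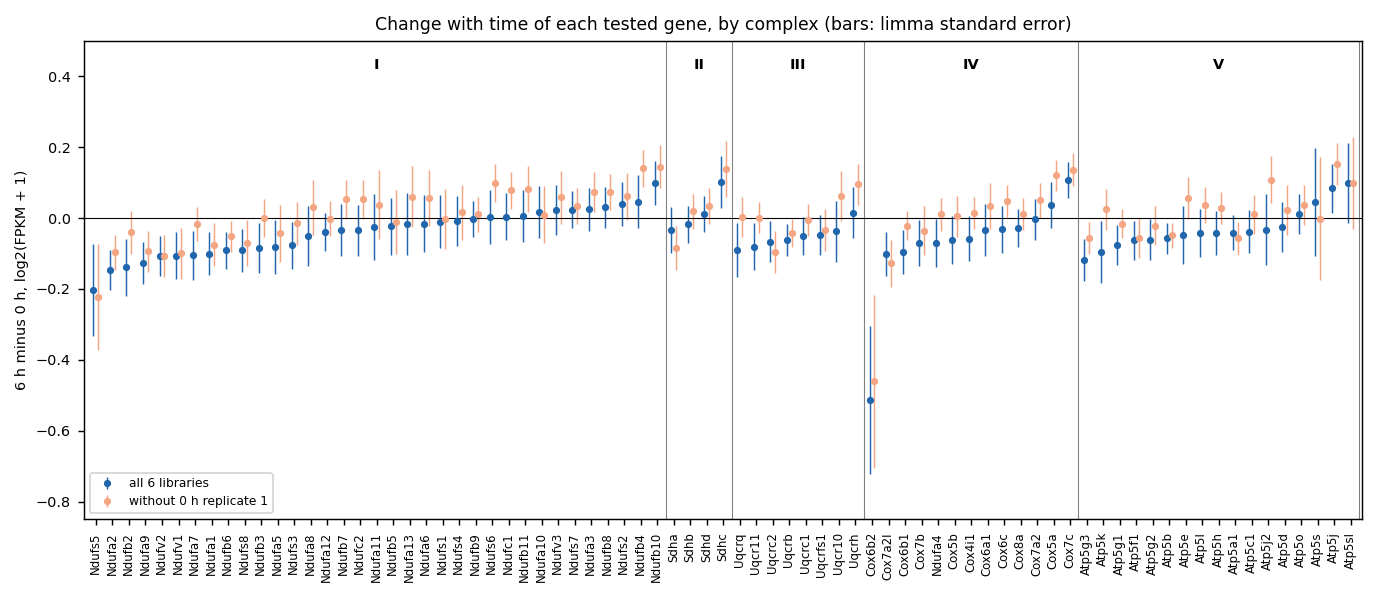
Change from 0 h to 6 h of the 77 tested genes on the log2(FPKM + 1) scale, ordered within each complex, with limma standard errors as bars, from all 6 libraries and without replicate 1 at 0 h. Most estimates lie close to 0, and most move up when that library is left out.

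The related lists also held no called gene: 0 of 46 assembly factors, 0 of 18 tricarboxylic acid cycle genes, 0 of 11 further subunits and carriers, 0 of 13 biogenesis regulators and 0 of 12 coenzyme Q genes passed the adjusted threshold in the limma test. Their median changes ran from -0.032 for the tricarboxylic acid cycle to 0.048 for the regulators. Citrate synthase (Cs), which opens the cycle, was at 130 ± 2.32 FPKM (SD, n = 3) at 0 h and 124 ± 2.67 FPKM (SD, n = 3) at 6 h.

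The third comparison set the conditional knockout against its floxed control. With 1 library per genotype there is no replicate check and no test. The oxidative phosphorylation genes stood close to the control level. Of the 82 genes averaging 1 FPKM or more in the 2 libraries, 46 (56.1%) were higher and 36 lower in the knockout library, against 55.0% higher among all 14949 genes. The median log2 difference was 0.041, against 0.036 over all genes. Over genes averaging at least 50 FPKM in the 2 libraries it was 0.088. Over the 72 oxidative phosphorylation genes averaging at least 50 FPKM in the 8 libraries it was 0.055. Past 1.5-fold on the log2(FPKM + 1) scale, 2 of the 82 were higher (2.44%), against 4.16% of all genes, and 4 were lower (4.88%), against 7.00%. Cox8c, 1 of the 4 lower, passed the filter of 1 FPKM only through the control library, so its direction was fixed by the filter. With a mean of at least 10 FPKM required, 0 of 76 were higher and 1 was lower past 1.5-fold. Of all 6435 genes at that level, 124 were higher and 78 lower. With so few genes past 1.5-fold, no difference from the background can be read.

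The genes past 1.5-fold were mostly at low levels. Cox7a1 stood at 3.91 FPKM (control) and 9.36 FPKM (knockout), and Ndufa4l2 at 3.43 and 6.32 FPKM. On the lower side, Cox7b2 stood at 6.03 and 1.92 FPKM, Cox8c at 2.27 FPKM and listed at 0, and Atp5s at 10.8 and 6.47 FPKM. The only one of the 6 above 50 FPKM was Ndufa5, an accessory subunit of the complex I matrix arm, at 140.2 and 91.6 FPKM, a difference of -0.61. The 6 GABA and taurine libraries held Ndufa5 at 139.2 to 173.8 FPKM.

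Among genes that reached 10 FPKM in a library, the next lowest in the knockout library were Ndufs5 at 50.6 and 35.3 FPKM, Ndufa6 at 128.3 and 93.7 FPKM, and Atp5sl at 10.1 and 7.7 FPKM. The highest were Ndufa9 at 61.7 and 85.4 FPKM, a difference of 0.46, and Ndufs3, a core subunit of the quinone-binding arm, at 42.6 and 56.2 FPKM. Atp5k, the small subunit e of the ATP synthase, stood at 134.1 and 175.9 FPKM, Ndufv3 at 108.1 and 131.3 FPKM, and Ndufa3 at 179.9 and 215.9 FPKM. Among genes averaging 50 FPKM or more over the 8 libraries, complex I held both the largest positive (Ndufa9) and the largest negative (Ndufa5) difference.

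The median difference was 0.106 for complex I, 0.022 for complex II, 0.048 for complexes III and IV, and -0.038 for complex V. The 7 core subunits of complex I had a median of 0.133, with 5 of 7 higher. In complex V the 3 small membrane subunits had a median of -0.19 and the 5 subunits of the catalytic F1 head 0.118. The isoforms Cox6b2 (58.4 and 56.6 FPKM) and Cox8b (51.8 and 61.5 FPKM), high in both genotype libraries, were under 1.5-fold apart. Of the 46 assembly factors, 4 were past 1.5-fold higher and 2 lower. Of 18 tricarboxylic acid cycle genes 16 were higher and none was past 1.5-fold. Of all genes averaging 1 FPKM or more in the 2 libraries 55.0% were higher, and of those averaging 50 FPKM or more 69.7%. Not all of the 18 reached 50 FPKM there.

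Markers of another cell type differed between these 2 libraries. All 15 epithelial markers at 1 FPKM or more were higher in the knockout library, and the 17 summed to 123 FPKM (control) and 1100 FPKM (knockout), with Epcam at 4.18 and 14.6 FPKM. Leukocyte markers summed to 262 and 317 FPKM and endothelial markers to 75.6 and 49.6 FPKM. Their part in the differences between the genotypes was not tested.

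**Figure D5:**
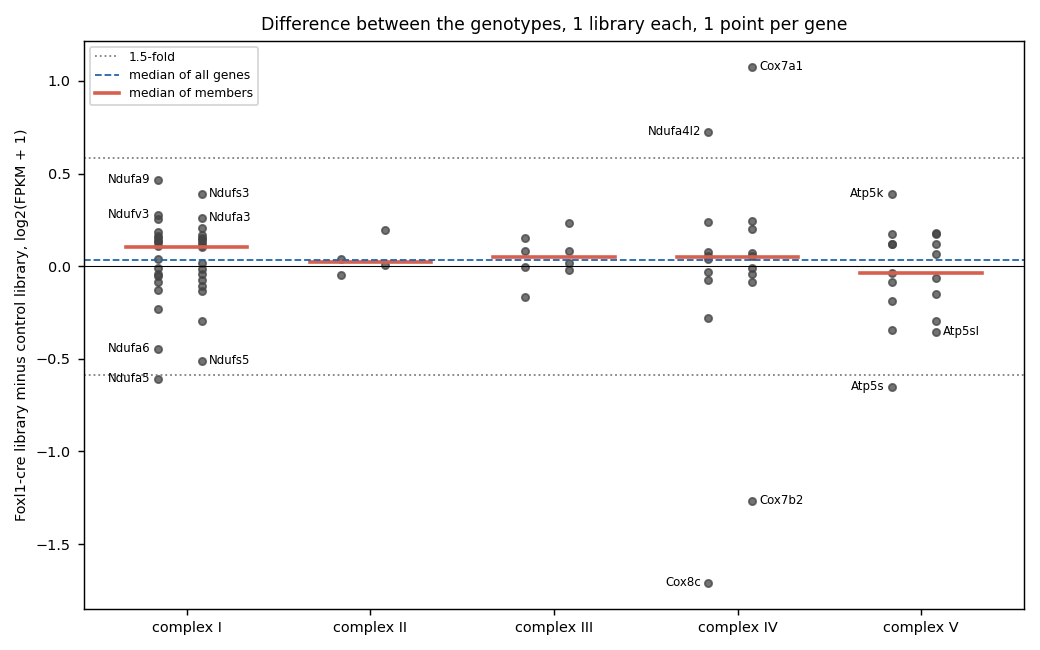
Difference of log2(FPKM + 1) between the conditional knockout and the control library, 1 library each, 1 point per gene by complex (82 genes), with the median of each complex as a bar and dotted lines at 1.5-fold. All but 6 points lie within the dotted lines, and 4 of those 6 are low-level complex IV isoforms.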

How the data were processed

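Gene expression was measured in 8 libraries by RNA sequencing of full-length cDNA, which does not mark strand, per the labels' protocols. The authors deposited FPKM per gene symbol, 1 table per library, per the file headers. Cuffdiff 2.2.1, SAMtools 0.1.18, Bowtie2 2.2.8, TopHat2 2.1.1 and the build mm10 appear in the submitters' processing notes without roles. The sources used here do not give the annotation, the scaling across libraries or the depth, so precision rests on the spread between libraries. An FPKM listed at 0 can be a failed estimate.

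The time comparison used limma 3.58.1 (R 4.3.3) and its intensity trend on log2(FPKM + 1) of genes averaging 1 FPKM or more, Benjamini-Hochberg adjustment over all of them and a threshold of 0.05. Log2 differences with a pseudocount of 1 understate changes of low genes. The fit was checked on simulated data. The genotype and library-set comparisons have no test. Named were the 5 genes with the smallest p (time), the 5 highest and lowest (genotype) and the 6 highest and lowest (library sets) of those with 10 FPKM in a library, the highest and lowest of each complex, and the complex IV isoforms. Other members were given as examples after their values were seen. The members and lists were chosen with earlier results of these data known. Gene overlaps and transcript lengths are from GENCODE M21 and promoters from RefSeq GRCm38.p6. Python 3.11.15 was used for the rest. Alternatives changed the pseudocount, the filter, the scaling, the trend, the block, the fold and the libraries used.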

Additional observations from a re-analysis of the deposited data

How the results depend on the processing

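No oxidative phosphorylation gene was called in any of the 14 limma fits of the time comparison. Over all genes the calls were 26 higher and 34 lower, but 0 and 0 without the filter on low values or without the intensity trend. Leaving out 1 library gave 0 to 47 higher and 2 to 68 lower. With a replicate block there were 14 and 9, and the median of the 77 genes stayed at -0.038. Same-numbered libraries did not deviate together (r = -0.044, 0.013 and -0.028). Whether the numbers pair them is not given in the labels, and these correlations cannot decide it. Leaving out 1 library moved that median from -0.089 to 0.011, and it turned positive only without replicate 1 at 0 h. With quantile normalization it was -0.010, and 31 of 77 estimates were positive, against 20. Of the genotype comparison, 6 genes passed 1.5-fold, 3 passed 2-fold, and 1 (Ndufa5) passed 1.5-fold when a mean of 10 FPKM was required. With median-centred libraries the genotype median fell from 0.041 to 0.001, with 42 higher and 40 lower against 46 and 36. Between the library sets, a common total per library moved the median from -0.49 to -0.39. It moved the counts without overlap from 54 lower and 12 higher to 47 and 16. The shares of all genes without overlap moved from 41.3% lower and 37.8% higher to 38.4% and 40.6%. The other 41 alternatives for summary values, quantile normalization and median centring among them, moved medians by less than the spread between libraries and counts by less than 1.5 times. All 162 alternatives for named genes kept their direction and call. With the filter at 10 FPKM, Cox6b2 (time), Atp5s and Atp5sl (genotype) had no value. Depth is unknown, so limits for genes near 0 FPKM cannot be given.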
